A study of Mus musculus with 12 samples.

Results

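The effect of AICAR on mouse skeletal muscle was set directly against that of GW1516, without passing through vehicle. The comparison took the 3 arrays of AICAR-treated mice and the 3 arrays of GW1516-treated mice, 6 of the 12 arrays of the series, and 12771 genes were tested. The arrays were chosen from their labels alone and no measured value entered the choice. The mice were C57Bl/6J and the tissue was quadriceps, a thigh muscle made mostly of fast-twitch fibres. AICAR was given at 250 mg/kg/day and GW1516 at 5 mg/kg/day, each for 6 days. The other groups received vehicle or both drugs, again on 3 arrays each, and every array carried RNA pooled from 3 mice. The labels give no genotype, age or sex, and leave unsaid if a mouse went into more than 1 pool, so the p-values below reflect only how much the pools varied. Values are MAS5 signals, the brightness of a gene's probe set in arbitrary units. Positive differences below are higher under AICAR and negative differences are higher under GW1516, on the log2 scale.

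AICAR is taken up by cells and phosphorylated to an AMP analogue that switches on the AMP-activated protein kinase (AMPK), a sensor of falling energy supply that promotes glucose uptake and fatty acid burning, partly through phosphorylation of enzymes already present. GW1516 is an agonist of PPARδ, a nuclear receptor that pairs with RXR on DNA and turns on genes for fatty acid import, activation and oxidation in muscle. The 2 agents therefore reach fuel metabolism at different levels, one through a kinase and one through a transcription factor, and a direct comparison asks which transcripts separate them.

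Fast-twitch fibre genes were bright on these arrays. The 19 measured summed to signals of 388500 to 396900 on the AICAR arrays and 362000 to 463600 on the GW1516 arrays. The 15 slow-twitch genes measured summed to 33620 to 40940 and 23360 to 40000. These sums come from different probe sets and cannot by themselves identify the muscle. The second GW1516 array stood apart from the rest, with a score of 45.93 on the first principal component against -18.74 to 6.77 on the other 11 arrays, and results are given with and without it. All 12 arrays had the same trimmed mean, 200, yet the median signal was 54.2, 52.0 and 52.0 on the AICAR arrays and 47.8, 45.4 and 49.1 on the GW1516 arrays, so the groups did not overlap. The all-gene median difference was 0.03, and it turned to -0.12 when arrays were centred on their median instead, a shift of -0.15. Among the dimmest 2555 genes the median difference was 0.17 and among the brightest 2554 it was -0.03. Correlations between the 6 arrays lay between 0.950 and 0.967.

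No gene separated the 2 drugs after adjustment for 12771 tests. In limma's moderated test 0 genes (0%) passed an adjusted p of 0.05, and the smallest adjusted p was 0.118. Without adjustment, 1168 genes lay under a p of 0.05, 656 of them (5.14%) higher under AICAR and 512 (4.01%) higher under GW1516. In 1041 genes (8.15%) all 3 AICAR signals lay above all 3 GW1516 signals, and in 828 (6.48%) the order was the opposite. A typical gene's 95% interval reached 0.40 to either side of its difference. Without the second GW1516 array 2 genes passed, both higher under GW1516: Fbp2 (-1.02, adjusted p = 0.000866) and Mlycd (-0.80, adjusted p = 0.00407). Without the first GW1516 array Rasd2, a small GTPase, passed (-1.34, adjusted p = 0.00722), and with arrays centred on their median 20 genes passed, 0 of them higher under AICAR.

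**Figure D1:**
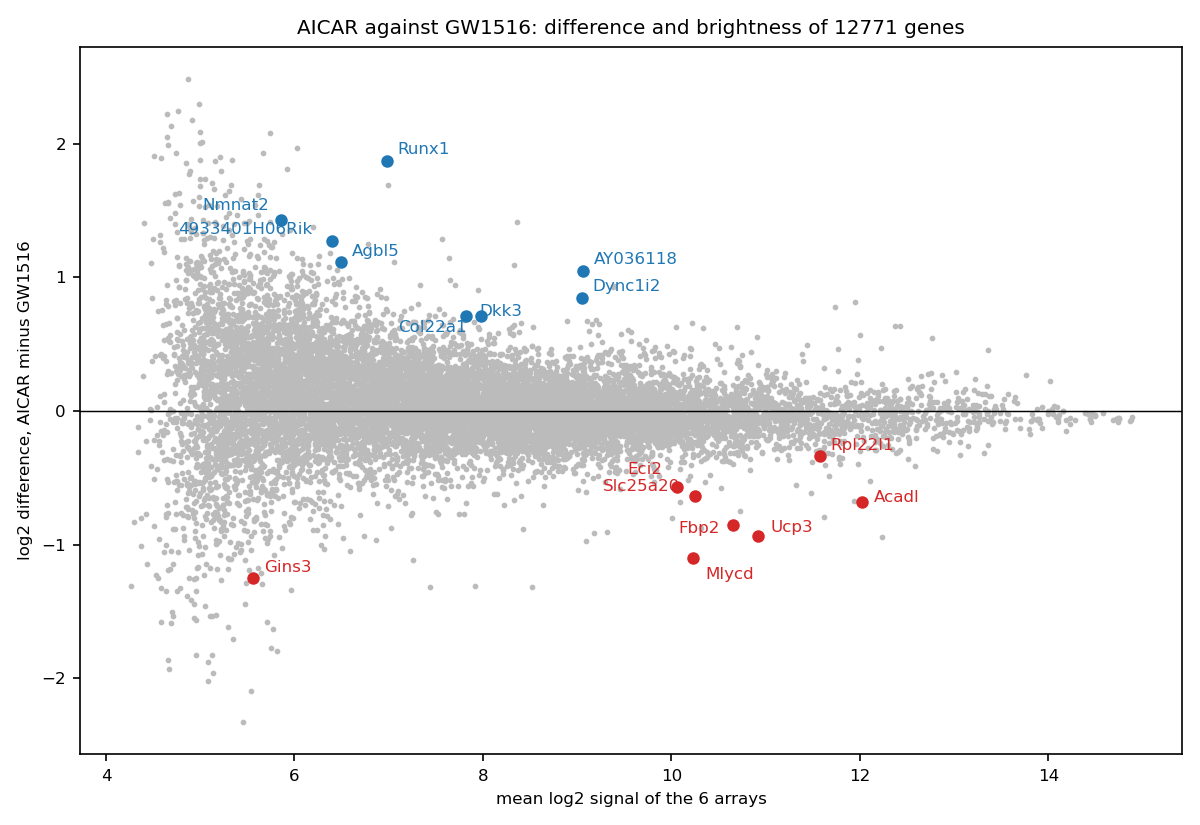
Each point is 1 of 12771 genes, with the mean log2 signal of the 6 arrays on the x axis and the log2 difference, AICAR minus GW1516, on the y axis. Blue points are the 8 genes of smallest p on the AICAR side and red points the 8 on the GW1516 side, none of which passed the adjusted test. The red genes include bright genes such as Acadl at -0.68, while larger differences among dim genes are spread on both sides of 0.

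The genes of smallest p on the GW1516 side were led by enzymes of fuel metabolism. Fbp2, the muscle fructose-bisphosphatase that runs a step of glycolysis backwards towards glycogen, had signals of 1241, 1254 and 1094 under AICAR and 2448, 1717 and 2387 under GW1516. Every GW1516 array lay above every AICAR array, and the vehicle arrays, at 1228, 1010 and 1096, lay with AICAR. The direct difference was -0.85 ± 0.13 (SE, n = 3 arrays a group; limma, adjusted p = 0.118), a 1.81-fold gap. With both drugs Fbp2 reached 2622, 2982 and 2661.

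Mlycd, malonyl-CoA decarboxylase, removes the metabolite that blocks fatty acid entry into mitochondria. Its signals were 868, 837 and 748 under AICAR and 1435, 2664 and 1412 under GW1516, with vehicle at 836, 723 and 780. The AICAR and vehicle ranges overlapped and the second GW1516 array was far above the other two. The difference was -1.10 ± 0.18 (limma, adjusted p = 0.135).

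Acadl, the long-chain acyl-CoA dehydrogenase of the first step of β-oxidation, stood at 3109, 3111 and 3632 under AICAR and 5134, 6115 and 4609 under GW1516. The groups did not overlap, and vehicle, at 2926, 2773 and 2625, was nearest to AICAR. The difference was -0.68 ± 0.11 (limma, adjusted p = 0.135). Slc25a20, the carnitine-acylcarnitine carrier of the inner mitochondrial membrane, had 935, 993 and 999 under AICAR and 1549, 1542 and 1450 under GW1516. Both groups were tight and well separated, with a difference of -0.63 ± 0.11 (limma, adjusted p = 0.154). Eci2, an isomerase that prepares unsaturated fatty acids for oxidation, had 860, 907 and 862 under AICAR and 1235, 1530 and 1160 under GW1516, with a difference of -0.57 ± 0.10 (limma, adjusted p = 0.154).

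Ucp3, the muscle uncoupling protein of the inner mitochondrial membrane and a classical PPAR target, had 1417, 1757 and 1091 under AICAR and 2301, 3218 and 2559 under GW1516, with vehicle at 1178, 895 and 1079. The GW1516 arrays were again above all others given one drug or none. The difference was -0.93 ± 0.16 (limma, adjusted p = 0.143), and the other probe set of Ucp3 gave -1.03. The remaining GW1516-side genes of smallest p were Rpl22l1, a paralogue of ribosomal protein L22, at -0.34, and Gins3, a subunit of the DNA replication helicase, at -1.25, both with an adjusted p of 0.249 in limma. Rpl22l1 was below vehicle in both drug groups (2662, 2720 and 2759 under AICAR, 3665, 3493 and 3164 under GW1516, 3999, 4181 and 4433 under vehicle). For Gins3 the second probe set gave 0.62, of the opposite sign.

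**Figure D2:**
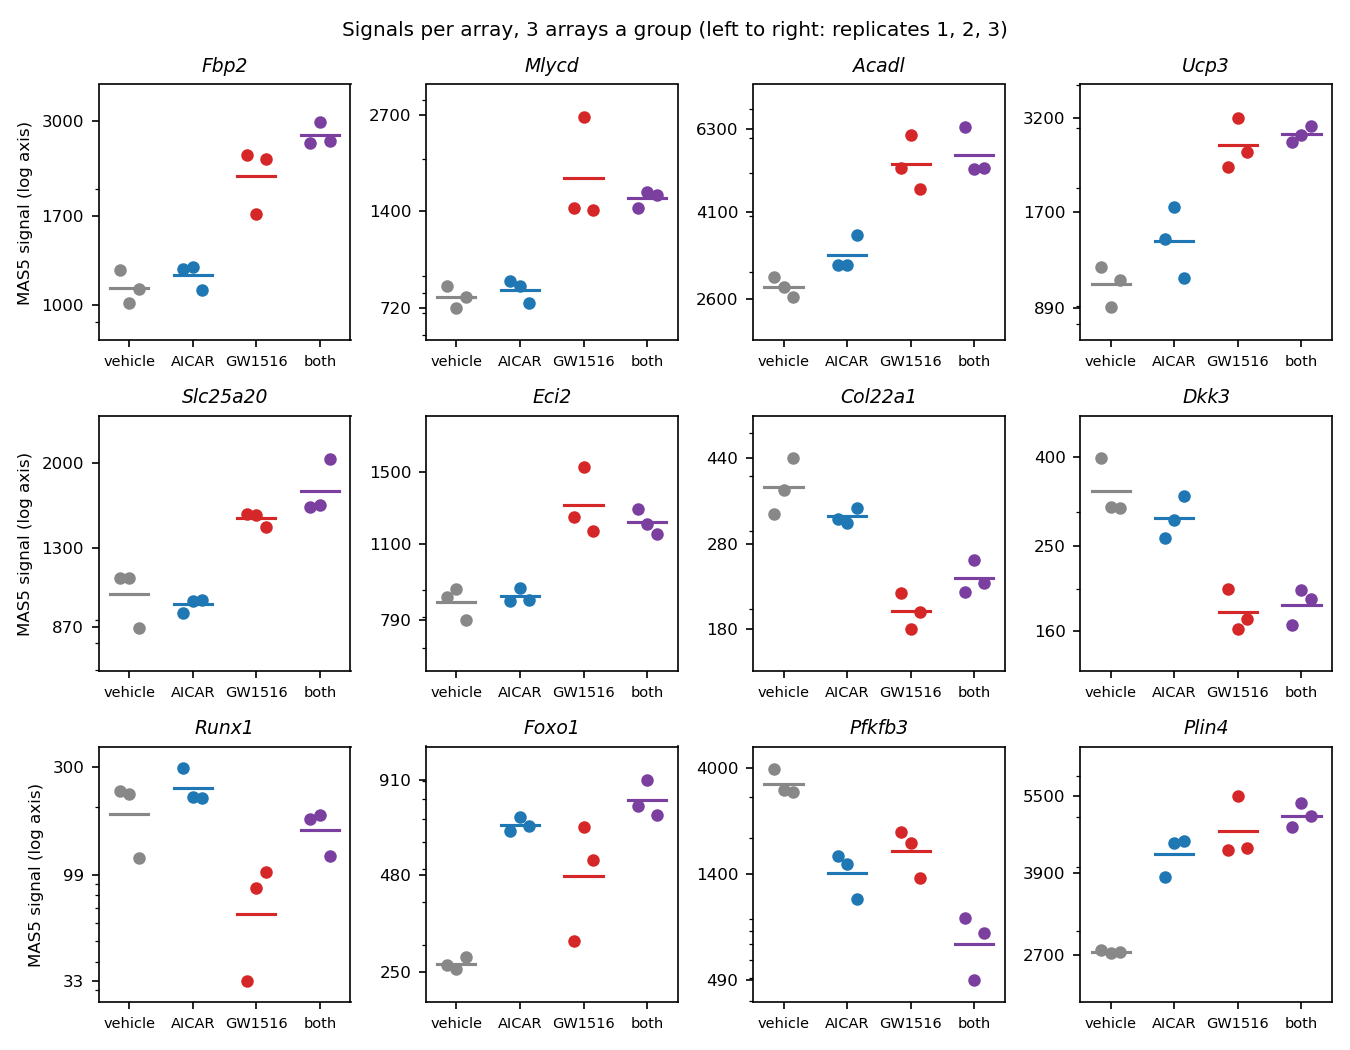
Each panel shows a gene's MAS5 signal on a log axis for the 12 arrays, with points for arrays in the order of replicates 1 to 3 and a line at the geometric mean of each group. In the first 6 panels the AICAR mean lies nearer to vehicle than the GW1516 mean does. Fbp2, for example, stands at 1094 to 1254 under AICAR and 1717 to 2448 under GW1516. For Acadl all AICAR points (3109 to 3632) still lie above vehicle (2625 to 2926). For Mlycd the second GW1516 point (2664) lies above the arrays given both drugs (1435 to 1595).

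The list of mitochondrial fatty acid oxidation genes placed 20 of its 21 measured members on the GW1516 side, with a median difference of -0.22 beside 0.03 for all genes. None of the 21 passed the adjusted test (0% of all genes did). In 11 of them every GW1516 array lay above every AICAR array, an order found in 6.48% of all genes, and the reverse order was found in 0. The size of the gap varied between members, and gaps were not tested against each other. It was widest for the thioesterase Acot2, which releases fatty acids from CoA inside mitochondria, with 199, 213 and 294 under AICAR and 451, 1079 and 400 under GW1516 (-1.32 ± 0.28, limma, adjusted p = 0.249). The second GW1516 array was the highest, and without it the difference was -0.87. The other probe set of Acot2 gave -0.73, so its place as the widest depends on the probe set.

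Further members are named here after their values were seen. Among the other dehydrogenases, Acadvl, which acts on very long chains, had 2944, 3001 and 3401 under AICAR and 3847, 4602 and 3493 under GW1516, a difference of -0.35. Hadha and Hadhb encode the 2 subunits of the trifunctional protein, which carries out the later steps on long chains, and their differences were -0.22 each. Hadhb had 5428, 5446 and 5425 under AICAR and 6385, 6638 and 5961 under GW1516. Enzymes nearer to 0 were Cpt2, the inner-membrane carnitine acyltransferase, at -0.01, Hadh, which acts on shorter chains, at -0.01, and Decr1, the dienoyl-CoA reductase, at 0.08 (-0.07 with median centring). Cpt1b, the muscle form of the entry enzyme, was not among the genes tested. Cpt1a, the form typical of liver, had 157, 244 and 148 under AICAR and 320, 285 and 260 under GW1516, a difference of -0.69.

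The broader list of PPAR target genes had 19 of 23 measured members on the GW1516 side, a median of -0.35, and 13 members with all GW1516 arrays on top (6.48% of all genes). It shares Acot2, Mlycd, Slc25a20, Acadvl, Hadha, Hadhb and other genes with the oxidation list, so the lists are not separate evidence, and both were drawn up with earlier results of these arrays known. Pdk4, the kinase that shuts off pyruvate oxidation, had 3459, 4264 and 2834 under AICAR and 5172, 10276 and 5612 under GW1516, and vehicle stood at 3320, 2120 and 2554. The difference was -0.94 ± 0.24 (limma, adjusted p = 0.301), with the second GW1516 array highest. Angptl4, a secreted inhibitor of lipoprotein lipase, had 80.9, 198 and 224 under AICAR and 326, 361 and 462 under GW1516 (-1.31 ± 0.36, limma, adjusted p = 0.317). The first AICAR array was well below the other two, and without it the difference was -0.85.

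Not every PPAR target lay on that side. The fatty acid translocase Cd36 stood at 0.03 (-0.12 with median centring), the carnitine transporter Slc22a5 at 0.16, the lipase Lpl at 0.24 and the fatty acid binding protein Fabp4, abundant in fat cells and capillaries, at 0.28. With median centring Slc22a5 stood at 0.01, Lpl at 0.09 and Fabp4 at 0.13. Leaving out the second GW1516 array gave 0.16 for Cd36, 0.02 for Slc22a5, 0.15 for Lpl and 0.02 for Fabp4. Without the second GW1516 array the target list kept 19 of 23 members on the GW1516 side, with a median of -0.34, and the oxidation list had 19 of 21, with a median of -0.20. Centring arrays on their median moved the 2 medians to -0.50 and -0.37.

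The promoters of 2 loci are shown as examples, because PPAR and RXR bind DNA as a pair at copies of the letters AGGTCA. For both genes every GW1516 array lay above every AICAR array, but 6.48% of all genes shared that order. Each sequence is the 250 bases before the gene's start in RefSeq (GRCm38.p6), in the direction of the gene, with AGGTCA in capitals. The Ucp3 window is chr7:100472741-100472990 on the plus strand. The Hadhb window, chr5:30155003-30155252 on the plus strand, largely coincides with the window of Hadha on the minus strand, chr5:30154981-30155230, since the 2 subunit genes start next to each other and run apart.
Ucp3: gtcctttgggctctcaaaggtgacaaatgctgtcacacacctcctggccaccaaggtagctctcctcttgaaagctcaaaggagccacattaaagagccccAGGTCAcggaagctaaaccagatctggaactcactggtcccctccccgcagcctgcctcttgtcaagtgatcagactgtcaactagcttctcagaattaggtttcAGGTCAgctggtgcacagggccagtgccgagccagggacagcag
Hadhb: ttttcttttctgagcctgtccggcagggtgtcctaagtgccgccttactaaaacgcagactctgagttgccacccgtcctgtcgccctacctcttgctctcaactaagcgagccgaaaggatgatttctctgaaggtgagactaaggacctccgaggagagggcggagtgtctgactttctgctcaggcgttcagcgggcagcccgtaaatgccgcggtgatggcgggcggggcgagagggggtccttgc
The Ucp3 window holds AGGTCA 2 times, starting 149 and 44 bases before the gene's start, and the Hadhb window holds it 0 times. Searched on both strands, AGGTCA was present in 3 of the 18 oxidation genes with a promoter in the RefSeq table (16.7%) and in 4607 of 32851 promoters in all (14%). The 3 were Acadm, Acadvl and Echs1. Ucp3 is not a member of that list. The windows of Fbp2, Mlycd, Acadl, Slc25a20 and Eci2, also among the genes of smallest p, held AGGTCA 0 times. The direct repeat DR1, which is 2 copies of AGGTCA with any 1 base between them and so always also a match of the single motif, was in 0 of the 18 and in 11 of all 32851 promoters (0.0335%). These matches describe letters in a short window and say nothing of binding.

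Fatty acid import differed within its own list. Slc27a1, a fatty acid transport protein of the plasma membrane, had 311, 439 and 549 under AICAR and 777, 855 and 761 under GW1516. All GW1516 arrays were higher than all AICAR arrays, with a difference of -0.92 ± 0.21 (limma, adjusted p = 0.264). Fabp3, the fatty acid binding protein of heart and skeletal muscle, had 5400, 4961 and 5587 under AICAR and 8783, 7144 and 5655 under GW1516, a difference of -0.42. Yet 13 of the 19 measured genes of lipid uptake, transport and droplets lay on the AICAR side, as did 55.7% of all genes, with a median of 0.13 that turned to -0.02 with median centring and to -0.04 without the third AICAR array.

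Among the coat proteins of lipid droplets the gap differed by member. Plin4 had 3828, 4447 and 4503 under AICAR and 4310, 5488 and 4357 under GW1516, and vehicle lay lower at 2761, 2726 and 2731. The 2 drug groups overlapped, with a difference of -0.14 and a 95% interval from -0.35 to 0.06. Plin2 (-0.36, interval -0.83 to 0.11) and Plin5 (-0.62, interval -1.29 to 0.04) had wider intervals. Plin2 ranged from -0.61 without the third AICAR array to -0.18 without the first, and Plin5 stood at -0.34 without the second GW1516 array. For these genes a difference of the size seen for Ucp3 lies outside the interval of Plin4 and inside that of Plin5.

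The main enzymes of fatty acid synthesis varied widely between arrays. Fasn, fatty acid synthase, had 737, 1421 and 2858 under AICAR and 1583, 456 and 1995 under GW1516, and Scd1, a fatty acid desaturase, had 3646, 7917 and 10114 against 6318, 1437 and 8523. The spread within each group exceeded the gap between them. The differences were 0.35 (interval -0.93 to 1.63) and 0.64 (interval -0.54 to 1.81), and without the second GW1516 array they were -0.30 and -0.15. Some other members of the lipid synthesis list were measured more tightly, but Agpat2 (0.58 ± 0.63) was not, and none passed. Acacb, the acetyl-CoA carboxylase that makes malonyl-CoA at mitochondria, had 2772, 2757 and 2475 under AICAR and 2836, 4196 and 2957 under GW1516, a difference of -0.30 ± 0.12 that was -0.12 without the second GW1516 array. Srebf1, a transcription factor of lipid synthesis, moved the other way, from -0.43 to -0.66 without that array. Adipocyte markers varied along with these genes: the 16 measured markers summed to 25820 to 52490 under AICAR, 19100 to 42520 under GW1516, with 19100 on the second GW1516 array, and 21800 to 34420 under vehicle. One marker, Adipoq, adiponectin, had 1122, 2658 and 4385 under AICAR and 1771, 1355 and 3054 under GW1516. The listed markers Cfd, Plin1 and Adrb3 were not among the genes tested. The part of fat cells in these values was not tested, and in pooled tissue fewer cells of a type and less RNA per cell cannot be told apart.

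**Figure D3:**
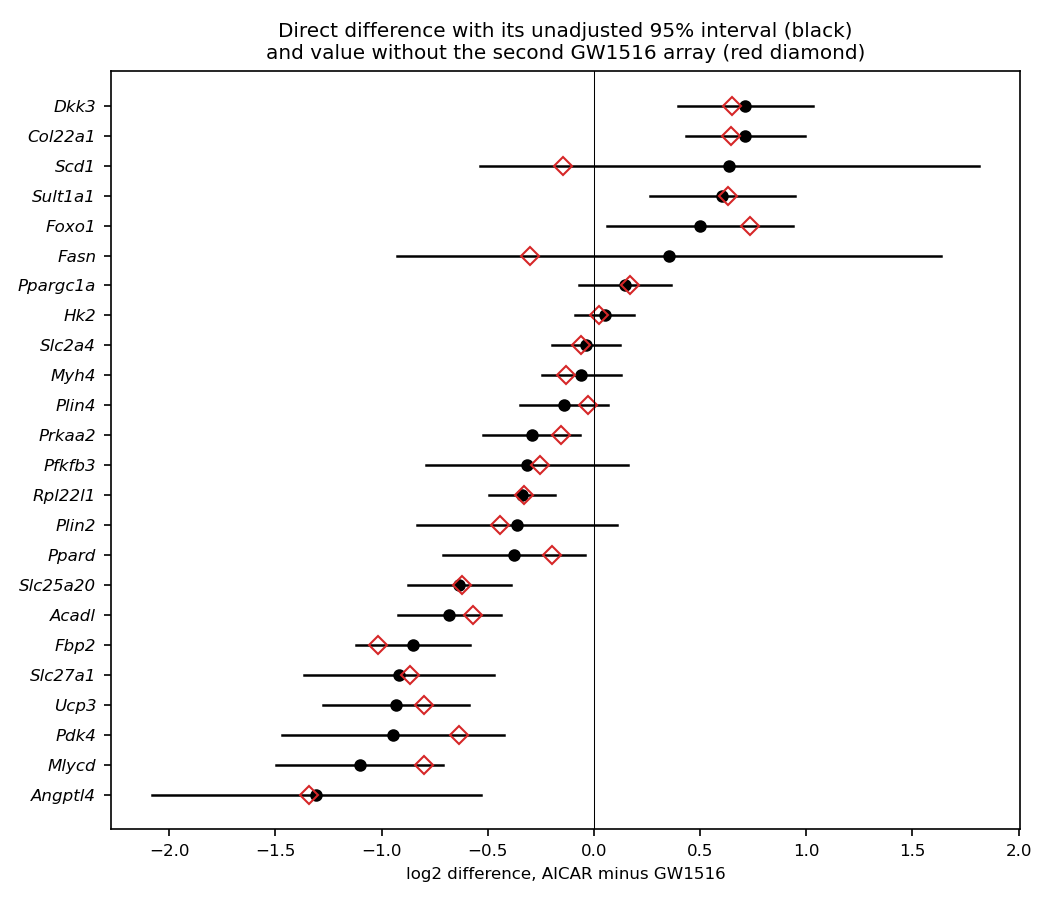
Black points are log2 differences, AICAR minus GW1516, with their unadjusted 95% intervals for the 24 measured genes of a fixed list. The list holds genes of PPAR, AMPK, glucose and fibre biology, and others such as Rpl22l1, Dkk3, Col22a1 and Sult1a1. Red diamonds are the values without the second GW1516 array. The intervals of Fasn and Scd1 span 0 widely, and their diamonds lie on the other side of 0, at -0.30 and -0.15.

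Of the 22 measured genes of glucose uptake and glycolysis, the 2 groups overlapped in all but Fbp2 and Pdk4. In those 2 all GW1516 arrays were on top, an order found in 6.48% of all genes, and the reverse order (8.15% of all genes) was found in 0. Hk2, the hexokinase of muscle, had 5143, 5268 and 5266 under AICAR and 5157, 4881 and 5109 under GW1516, a difference of 0.05 with an interval from -0.09 to 0.19 (-0.10 with median centring). Slc2a4, the insulin-sensitive glucose transporter GLUT4, stood at -0.04 with an interval from -0.20 to 0.12, and its other probe set gave 0.20. Those intervals leave out gaps of the size of Fbp2 or Pdk4. Pfkfb3, a kinase and phosphatase that sets the level of a glycolytic activator, had 1668, 1551 and 1092 under AICAR and 2122, 1907 and 1342 under GW1516. Both groups lay below every vehicle array (3954, 3226 and 3151), and they overlapped with each other (-0.31, interval -0.79 to 0.16). Ldhb, a lactate dehydrogenase subunit, stood at 0.41 (interval -0.19 to 1.02), and at 0.063 without the third GW1516 array. Over this list the median was -0.02, and it was -0.18 with median centring and 0.02 with quantile normalization.

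No transcript of the receptors and kinases the drugs act on passed the test. For Ppard and Prkaa2 all GW1516 arrays lay above all AICAR arrays, an order found in 6.48% of all genes. Ppard, the receptor of GW1516, had 270, 222 and 259 under AICAR and 293, 412 and 280 under GW1516 (-0.37, interval -0.71 to -0.04, limma, adjusted p = 0.51). The second GW1516 array carried much of that gap, which was -0.20 without it. Prkaa2, the catalytic AMPK subunit typical of muscle, had 4349, 4283 and 3905 against 4707, 6205 and 4575, a difference of -0.29, or -0.15 without that array. The other probe sets of Prkaa2 gave -0.28 and -0.07, the latter from the brighter of them. Ppargc1a, the coactivator PGC-1α, had 670, 694 and 608 against 634, 614 and 536. Its groups overlapped, at 0.15 (interval -0.07 to 0.36, and -0.0063 with median centring), and all 5 of its probe sets had the same sign. Of the 12 AMPK subunits and upstream kinases measured, 6 lay on each side.

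On the AICAR side, the genes of smallest p were of other kinds, and none passed. Col22a1, a collagen of tissue junctions such as the muscle-tendon junction, had 320, 314 and 339 under AICAR, 218, 181 and 196 under GW1516 and 328, 372 and 439 under vehicle. Here it was the GW1516 arrays that lay away from vehicle, and the arrays with both drugs, at 218, 259 and 229, were low as well. The difference was 0.71 ± 0.13 (limma, adjusted p = 0.163), and the 3 probe sets of Col22a1 ranged from 0.05 to 0.71. Dkk3, a secreted glycoprotein of the Dickkopf family, showed the same order, with 261, 287 and 327 under AICAR, 200, 162 and 171 under GW1516 and 398, 308 and 306 under vehicle (0.71 ± 0.15, limma, adjusted p = 0.249). Its other probe set gave 0.72.

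Runx1, a transcription factor that muscle increases after loss of its nerve, had 298, 220 and 218 under AICAR, 33.0, 86.0 and 102 under GW1516, and 234, 229 and 118 under vehicle. The GW1516 arrays were the lowest of the 3 groups and their own spread was wide, with a difference of 1.87 ± 0.37 (limma, adjusted p = 0.195). The 3 probe sets of Runx1 above the filter shared the sign but ranged from 0.15 to 1.87. With Runx1 included, 8 of 15 measured members of the denervation and neuromuscular junction list lay on the AICAR side and the list median was 0.02 (-0.13 with median centring). Its members ranged from -1.08 to 1.87, and without the second GW1516 array 6 lay on the AICAR side and 9 on the GW1516 side. Agrn, the organiser of the nerve-muscle synapse, lay on the AICAR side at 0.55 ± 0.23 (limma, adjusted p = 0.514). Musk, also of this list, lay on the GW1516 side at -0.47 ± 0.22 (limma, adjusted p = 0.542). Myog, another gene of denervated muscle, stood at 0.02, or -0.13 with median centring.

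For Dync1i2 and 4933401H06Rik the AICAR arrays were the ones away from vehicle. Dync1i2, an intermediate chain of the dynein motor, had 793, 647 and 703 under AICAR, 354, 389 and 447 under GW1516 and 484, 417 and 430 under vehicle, a direct difference of 0.85. The uncharacterised transcript 4933401H06Rik had 107, 133 and 159, then 61.8, 54.3 and 47.3, then 52.6, 66.8 and 79.2 in the same 3 groups, a difference of 1.28. Agbl5, a carboxypeptidase of tubulin, had 130, 144 and 125 under AICAR and 63.2, 58.4 and 62.5 under GW1516, a difference of 1.12, with vehicle between them by mean at 90.3, 101 and 63.1. Its other probe set above the filter, almost as bright, gave 0.49. Nmnat2, which makes NAD and is known from axons, had 90.8, 96.8 and 98.4 against 32.1, 29.3 and 47.4, a difference of 1.43, and vehicle again lay between by mean, at 91.8, 55.7 and 62.9. These 4 genes shared an adjusted p of 0.195 in limma. The transcript AY036118, with 727, 730 and 865 under AICAR and 476, 315 and 345 under GW1516, had a difference of 1.05 (limma, adjusted p = 0.249) and overlapped vehicle, at 518, 783 and 540, in the AICAR group.

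Foxo1 and Sult1a1 were, by mean, above vehicle under both drugs and higher under AICAR than under GW1516. Foxo1, a factor that drives genes of fasting and muscle wasting, had 645, 709 and 667 under AICAR and 307, 660 and 532 under GW1516, with vehicle at 262, 254 and 276. The third AICAR array exceeded the highest GW1516 array only narrowly and the first was below it, so the groups overlapped. The difference was 0.50 (interval 0.06 to 0.94, limma, adjusted p = 0.505), and it was 0.18 without the first GW1516 array and 0.74 without the second. The 3 probe sets of Foxo1 above the filter shared the sign and ranged from 0.16 to 0.50. The lowest of these came from a probe set almost as bright as the one used, with mean signals of 507 and 509. Sult1a1, a sulfotransferase of phenolic compounds, had 749, 1049 and 988 under AICAR and 504, 628 and 699 under GW1516. Its groups did not overlap (0.60 ± 0.16, limma, adjusted p = 0.31), and vehicle stood at 454, 544 and 381. The vehicle arrays enter both drugs' distances from vehicle, so those 2 distances are not independent of each other.

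Differences in other gene groups depended in large part on the second GW1516 array. The FOXO and atrophy list had 21 of 25 members on the GW1516 side and a median of -0.24, which became -0.0018 with 13 members on that side when the array was left out. Trim63, the muscle ubiquitin ligase MuRF1, had 2267, 2517 and 2357 under AICAR and 2209, 10734 and 2978 under GW1516. Only the second GW1516 array was far above the AICAR range, and the difference of -0.80 became -0.11 without it. Fbxo32, the ligase atrogin-1, moved from -0.61 to 0.22. The 32 proteasome genes, 30 of them on the GW1516 side, had a median of -0.19 with all arrays. Without the second GW1516 array the median was -0.04, and 23 of the 32 stayed on that side. In 12 of the 32 every GW1516 array lay above every AICAR array (6.48% of all genes).

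The 22 measured fibroblast and matrix genes all lay on the AICAR side, with a median of 0.53, and 4 had all AICAR arrays on top (8.15% of all genes). The list's median over its members, as log2 signal minus the mean of the 6 arrays, was 0.30, 0.31 and 0.12 on the AICAR arrays and 0.01, -1.04 and 0.20 on the GW1516 arrays. The low value belonged to the second GW1516 array alone, and without it the median difference was 0.15 with 20 of 22 genes on the AICAR side. Col6a1, a chain of the collagen VI around muscle fibres, had 1526, 1571 and 1416 under AICAR and 1174, 524 and 1394 under GW1516, and its difference of 0.66 became 0.23. Pdgfra, the receptor that marks interstitial fibroblast-like cells, had 277, 352 and 286 against 196, 180 and 259, and its difference of 0.54 became 0.43. Summed signals of the list were 44270 to 56600 under AICAR, 23070 to 48030 under GW1516 and 41940 to 53720 under vehicle.

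Macrophage and antigen-presenting genes followed a like order over arrays, with 16 of 18 on the AICAR side and a median of 0.35 that was 0.16 without the second GW1516 array. C1qb, a complement subunit made by macrophages, had 262, 266 and 282 under AICAR and 150, 150 and 257 under GW1516. Its difference was 0.59, and 0.46 without the array. Adipocyte markers had 15 of 16 on the AICAR side and a median of 0.35, which was 0.01 without it. The part of these cell types in the drug comparison was not tested.

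**Figure D4:**
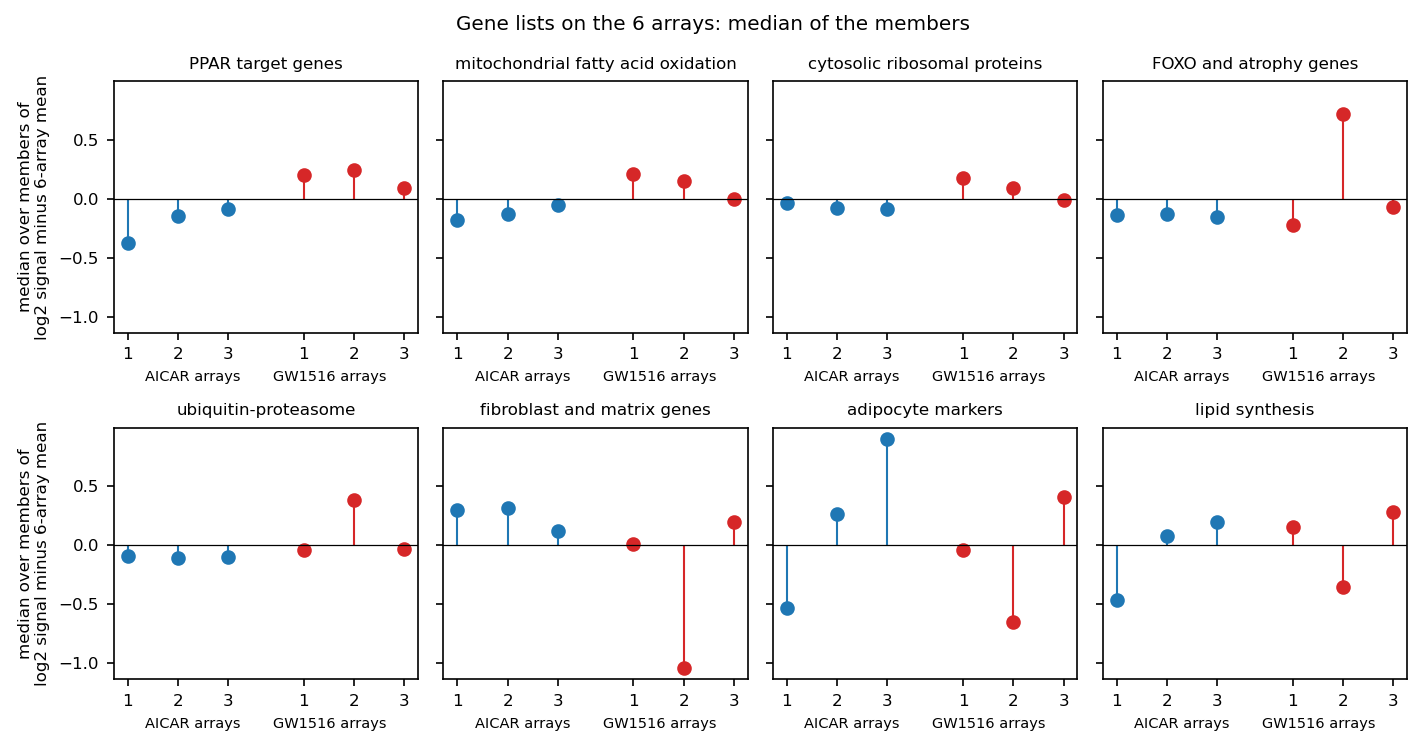
Each panel shows the median over a list's members of log2 signal minus the mean of the 6 arrays, for the 3 AICAR arrays in blue and the 3 GW1516 arrays in red. PPAR targets are below 0 on all AICAR arrays and above 0 on all GW1516 arrays, while for the fibroblast and matrix list a single red point, at -1.04, lies far from the rest.

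Ribosomal protein genes formed a small offset in 1 direction, which was not even over the arrays. The list's median over its members, as log2 signal minus the mean of the 6 arrays, was -0.04, -0.08 and -0.09 on the AICAR arrays. It was 0.17, 0.09 and -0.01 on the GW1516 arrays. Members ranged from -0.39 to -0.04, and 9 of the 30 listed were not tested. All 21 measured cytosolic ribosomal proteins lay on the GW1516 side, with a median of -0.11, and this was -0.12 without the second GW1516 array, -0.06 with quantile normalization and -0.27 with median centring. In 9 of the 21 the GW1516 arrays were all on top (6.48% of all genes), and bright genes as a whole leaned the same way by -0.03. Rpl10a, a protein of the large subunit, had 4777, 4503 and 4500 under AICAR and 5802, 5338 and 5329 under GW1516. The AICAR values lay under vehicle too, at 5220, 5776 and 5322, and the direct difference was -0.26 ± 0.07 (limma, adjusted p = 0.31).

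None of the measured fibre type or respiratory chain genes passed the test (0% of all genes did). Myh4, the myosin of the fastest fibres, had 26466, 26635 and 26206 under AICAR and 32005, 24927 and 26240 under GW1516 (-0.06, interval -0.25 to 0.13). Of the 15 slow-twitch genes 13 lay on the AICAR side, with a list median of 0.31, and 1 had all AICAR arrays on top (8.15% of all genes). That median was 0.11 without the third GW1516 array, 0.43 without the second, 0.51 without the second AICAR array and 0.16 with median centring. Myoglobin, Mb, shows the spread behind that value, with 12238, 11347 and 13451 under AICAR and 13631, 9193 and 5816 under GW1516. Myh7, the slow myosin, was not among the genes tested. The 58 oxidative phosphorylation genes had a median of 0.04, which was -0.05 without the second GW1516 array and -0.12 with median centring, and 0 of them had groups apart in either direction (8.15% of all genes toward AICAR and 6.48% toward GW1516).

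**Figure D5:**
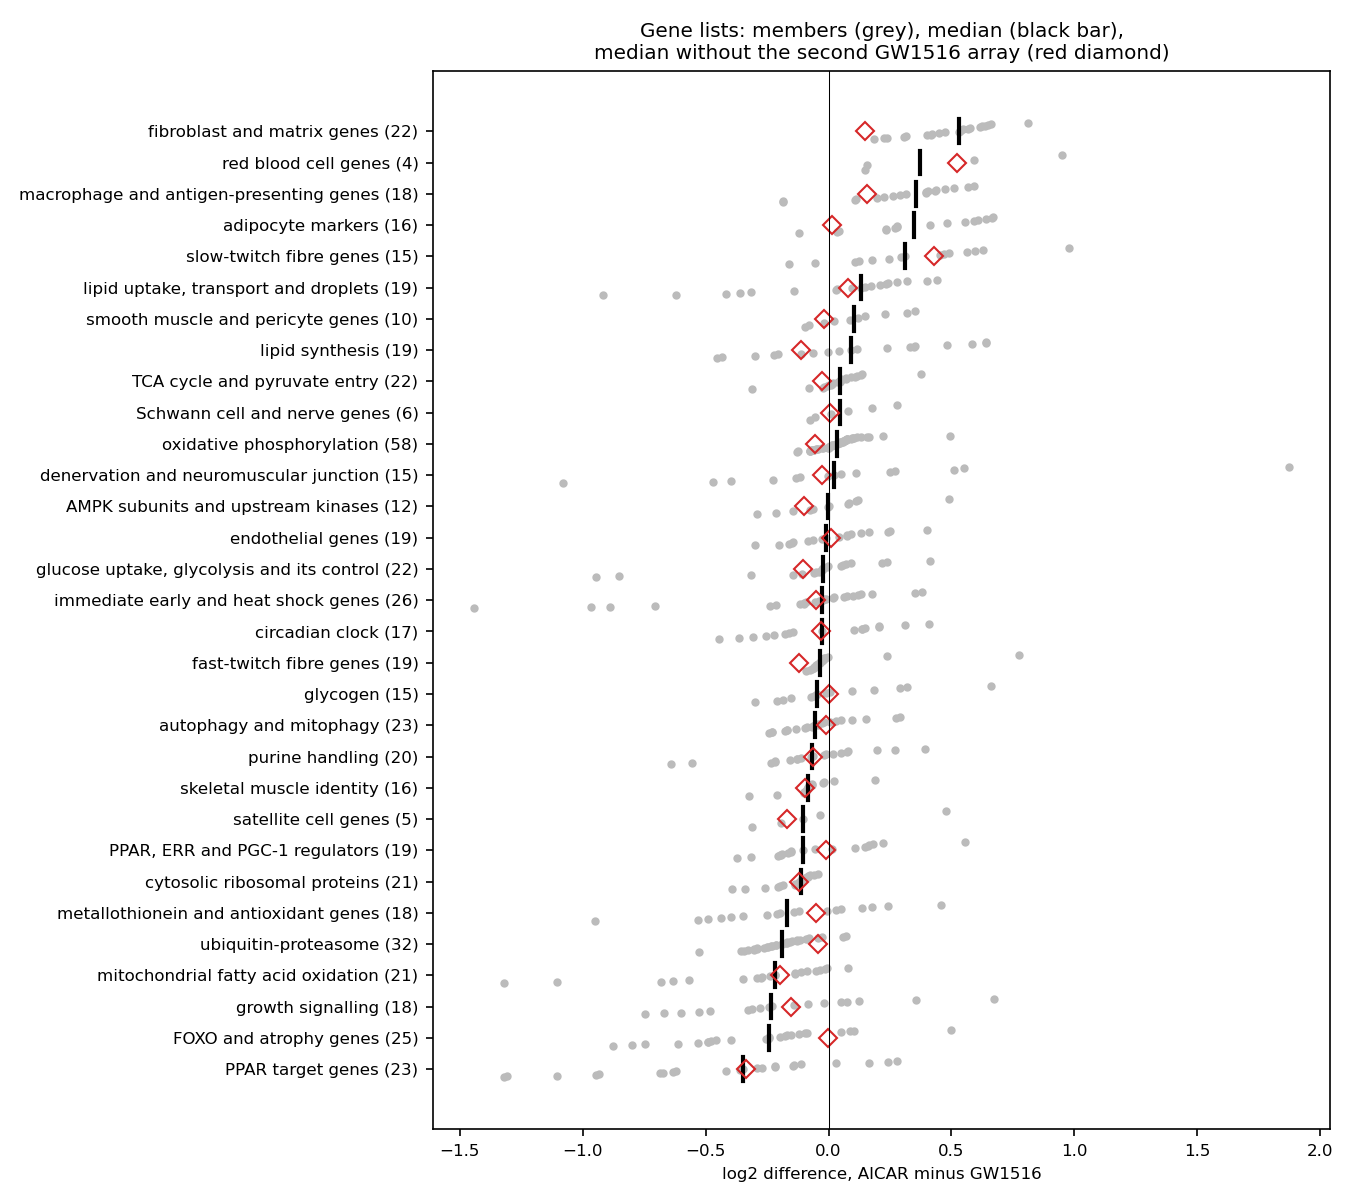
Grey points are the log2 differences, AICAR minus GW1516, of each list's measured members, whose number stands in brackets. Black bars are list medians and red diamonds the medians without the second GW1516 array. The PPAR target list has both at -0.35 and -0.34, whereas for the FOXO and atrophy list they are -0.24 and -0.0018.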

How the data were processed

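The authors deposited 1 linear intensity value for every probe set and array, a MAS5 signal according to the submitters' processing notes. The sources used here name no MAS5 version or scanner settings. Probe sets were named from the array's annotation, updated by gene ID. Of 45037 probe sets beside the controls, 34945 carried 1 gene symbol. Signals under 1 were raised to 1 before the log2 step, and arrays were not normalized again. The dimmest 40% of probe sets (mean signal under 28.2) were left out, and each gene was taken from its brightest probe set over all 12 arrays. Groups were fitted with limma 3.58.1 in R 4.3.3 on all 12 arrays with a variance trend, and p-values were two-sided and adjusted by Benjamini-Hochberg. Precision is limited by the number of arrays. The code was tested on simulated data. Genes named are the 8 of smallest p per direction (fewer than 8 were called), a fixed list and up to 4 members per gene list, and others are named as examples after their values were seen. The members and lists were chosen with earlier results of these data known. The main fit did not pair arrays by replicate number. Deviations of same-numbered AICAR and GW1516 arrays correlated at -0.02, 0.00 and 0.03, and those of differently numbered arrays at -0.03 to 0.03. With 3 arrays a group these values cannot show whether same-numbered arrays were handled together. Figures were drawn with matplotlib 3.10.9.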

Additional observations from a re-analysis of the deposited data

How the results depend on the processing

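The count of genes passing an adjusted p of 0.05 was 0 with all arrays and remained 0 with quantile normalization, an offset of 32 added before the log, the filter dropped or raised to 60%, probe sets averaged per gene, variances without a trend or robust, and only the 6 arrays of the comparison. It was 20 with arrays centred on their median and 2 with array weights, in each case all higher under GW1516. Leaving out single arrays gave 0 to 2, with 1 without GW1516 replicate 1 and 2 without GW1516 replicate 2. With the replicate block it was 0, and no call changed. An adjusted p of 0.1 gave 0 as well.

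Of 62 genes followed, 15 changed sign in at least 1 setting, all without passing. With median centring Cd36 stood at -0.12, Decr1 at -0.074, Hk2 at -0.10, Myog at -0.13 and Ppargc1a at -0.0063. With quantile normalization Cpt2 stood at 0.034, Hadh at 0.034, Myog at -0.075 and Slc2a4 at 0.013. With array weights Cpt2 was 0.044, Echs1 0.045 and Fasn -0.060, and with the mean of probe sets Cpt2 was 0.023 and Slc2a4 0.082. Leaving out single arrays gave ranges from -0.17 to 0.81 for Adipoq, -0.13 to 0.24 for Cd36, -0.16 to 0.086 for Cpt2, -0.044 to 0.17 for Decr1, -0.21 to 0.072 for Echs1, -0.035 to 0.62 for Fabp4, -0.30 to 0.84 for Fasn, -1.23 to 0.22 for Fbxo32, -0.075 to 0.075 for Hadh, -0.13 to 0.048 for Myh4, -0.022 to 0.085 for Myog, -0.15 to 1.14 for Scd1 and -0.10 to 0.015 for Slc2a4. The cause was not tested.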
